A study of Rattus norvegicus with 35 samples.

Results

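The cell cycle and mitosis genes described here are 35 listed genes that act when cells copy and divide their chromosomes. They comprise the G1 cyclin Ccnd1, 13 genes of S phase and 21 genes of mitosis. Of the 35, 34 were measured by a probe set of their own, out of 14217 genes measured in all, namely Ccnd1, 12 S phase genes and all 21 mitotic genes. Rrm2 was not analysed here, because its 2 probe sets are also annotated to Rrm2l1. Where a gene had several probe sets, the one with the highest mean over all arrays was read.

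Liver RNA was profiled on 1 Affymetrix expression array per sample in 35 male Harlan Sprague Dawley rats that were 7 weeks of age when dosing began. All groups were gavaged daily for 5 days with corn oil at 5 ml per kg body weight. In 5 groups the oil carried the brominated flame retardant BTBPE, bis(tribromophenoxy)ethane, at 0.07 mg/kg, 0.69 mg/kg, 6.88 mg/kg, 68 mg/kg and 680 mg/kg, and in the vehicle group it carried none. Left lobe tissue was taken on the day after the last dose, with n = 6 rats per group except for 5 rats at 68 mg/kg. The labels number the samples within each group and do not state cages or litters, so the p-values measure the spread between these samples. How precise any value is depends on the number of arrays.

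Dividing cells leave G1 when D-type cyclins and their kinases inactivate the retinoblastoma protein, which releases E2F transcription factors that drive the genes of DNA synthesis. Genes of G2 and mitosis are switched on later, by a complex that holds B-MYB and FOXM1 and that, in human and mouse cells, binds promoters at a cell cycle genes homology region, abbreviated CHR, often near CCAAT boxes bound by NF-Y. In adult liver most hepatocytes rest outside the cycle, and the same genes are known to be switched on after partial resection, after injury and by some chemicals that act as liver mitogens.

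Promoter sequences are shown first, because the genes of the 2 phases are known for different promoter elements. RefSeq (assembly GRCr8) gave a start site for 27 of the 34 measured members, and the 250 bases before it were searched on both strands. The letters searched were TTTGAA and the variant TTCGAA for the CHR, CCAAT for the CCAAT box, and for E2F the form TTTCCCG, the form TTTGGCG and the form TTTCGCG. A match is a description of these letters and not a measured binding site. The CHR letters occurred in 9 of 17 mitotic members and 3 of 10 S phase members, against 18.5% of all 27457 genes with such a promoter. E2F letters occurred in 2 of 17 mitotic members and 5 of 10 S phase members, against 5.20% of all genes. CCAAT boxes occurred in 13 of 17 mitotic members and 6 of 10 S phase members, against 36.1% of all genes. Matches can overlap, as where E2F matches on opposite strands share letters in the Mcm6 promoter.

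The promoters of 3 mitotic members and of 2 S phase members are printed 5′ to 3′ on the strand of the gene, with every searched motif in capitals. A CCAAT box on the other strand reads ATTGG. Cdk1, the kinase that drives entry into mitosis, lies on the plus strand with its window at chr20:19265043-19265292 and holds CHR letters 16 and 72 bases before the start. Ccnb2 encodes cyclin B2, a partner of Cdk1, and its window at chr8:79981659-79981908 on the minus strand holds CHR letters 43 and 214 bases before the start and 3 CCAAT boxes. Nusap1, a spindle microtubule protein at chr3:127057045-127057294 on the plus strand, is shown as a mitotic promoter without CHR letters. Mcm6, a subunit of the replicative helicase at chr13:42404353-42404602 on the minus strand, holds overlapping E2F letters on both strands. Pcna, the sliding clamp of DNA polymerase at chr3:139955821-139956070 on the minus strand, is shown as an S phase promoter without E2F or CHR letters.
Cdk1: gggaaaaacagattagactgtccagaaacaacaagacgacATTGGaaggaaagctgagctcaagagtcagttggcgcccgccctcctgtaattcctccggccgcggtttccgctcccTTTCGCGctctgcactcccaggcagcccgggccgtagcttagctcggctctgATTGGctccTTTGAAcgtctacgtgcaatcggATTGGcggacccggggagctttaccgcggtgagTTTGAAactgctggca
Ccnb2: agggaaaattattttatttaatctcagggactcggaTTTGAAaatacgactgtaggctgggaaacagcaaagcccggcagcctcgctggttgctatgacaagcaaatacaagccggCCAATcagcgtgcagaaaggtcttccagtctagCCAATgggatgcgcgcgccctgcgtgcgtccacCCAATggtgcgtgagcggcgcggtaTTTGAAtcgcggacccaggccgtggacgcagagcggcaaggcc
Nusap1: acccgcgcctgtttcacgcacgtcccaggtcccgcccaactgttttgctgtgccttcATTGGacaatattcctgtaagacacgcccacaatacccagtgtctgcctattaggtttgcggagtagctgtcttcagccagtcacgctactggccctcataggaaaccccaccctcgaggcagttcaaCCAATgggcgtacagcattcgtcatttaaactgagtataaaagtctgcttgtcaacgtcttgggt
Mcm6: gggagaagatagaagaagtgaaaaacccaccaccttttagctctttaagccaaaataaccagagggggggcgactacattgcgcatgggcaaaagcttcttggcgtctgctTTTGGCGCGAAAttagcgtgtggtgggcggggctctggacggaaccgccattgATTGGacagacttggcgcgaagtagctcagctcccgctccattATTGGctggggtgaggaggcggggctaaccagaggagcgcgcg
Pcna: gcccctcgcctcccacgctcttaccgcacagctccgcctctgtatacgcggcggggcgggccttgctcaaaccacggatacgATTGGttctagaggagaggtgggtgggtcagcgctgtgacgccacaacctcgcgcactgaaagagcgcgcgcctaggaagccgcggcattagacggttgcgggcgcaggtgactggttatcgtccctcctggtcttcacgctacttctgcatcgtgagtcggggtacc

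All expression values below are the deposited RMA values on a log2 scale, where a difference of 1 is a 2-fold change. The median of all probe sets lay between 4.71 and 4.79 on the 35 arrays, and a value below it is not shown to be above background. Probe sets differ in brightness, so levels are compared between rats and not between genes. Over the 35 rats, 23 of the 34 members had a mean above 4.71, comprising Ccnd1, 10 of 12 S phase members and 12 of 21 mitotic members, against 50.6% of all 31042 probe sets tested. The other 11 were Mcm3, Ccne2, Ccnb1, Kif11, Racgap1, Ccna2, Aurkb, Mki67, Bub1, Bub1b and Melk. On every array 14 members read above that array's own median, and on none did Ccne2, Aurkb, Mki67, Bub1, Bub1b or Melk.

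The spread between rats of one group differed by phase. The median SD of deviations from the group means was 0.29 over the 21 mitotic members and 0.16 over the 12 S phase members, beside 0.14 over all probe sets. The phases overlapped, with SDs between 0.14 and 0.70 for mitotic members and between 0.10 and 0.28 for S phase members. Cdkn3, a phosphatase that acts on cyclin-dependent kinases, had the largest SD of the members, 0.70, larger than that of 99.8% of all probe sets. Mcm7 had the smallest, 0.10. These SDs describe rats within groups and so do not involve any difference between doses.

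**Figure D1:**
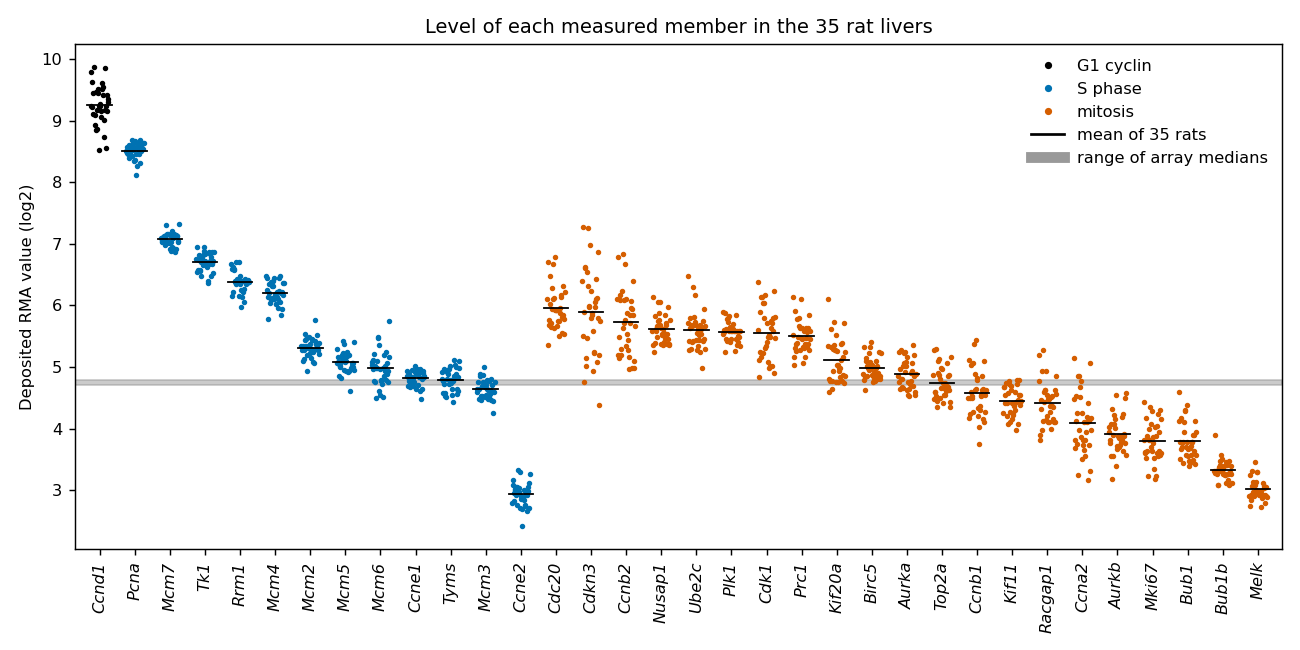
Deposited log2 RMA value (vertical axis) of each of the 34 measured members (horizontal axis), 1 point per rat, with the mean of 35 rats as a line and the range of the array medians, 4.71 to 4.79, as a grey band. Cdkn3, a mitotic member, has the largest SD (0.70) and Mcm7, an S phase member, the smallest (0.10), while the SDs of the 2 phases overlap. Heights do not rank genes, since probe sets differ in brightness.

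Ccnd1, cyclin D1, which links growth signals to the exit from G1, spanned 9.11 to 9.79 in vehicle rats, 8.85 to 9.87 at 0.07 mg/kg, 8.52 to 9.51 at 0.69 mg/kg, 9.05 to 9.61 at 6.88 mg/kg and 8.56 to 9.41 at 680 mg/kg. Ccnd1 read 9.41, 9.01, 8.74, 9.85 and 9.17 in the 5 rats at 68 mg/kg. Ccnd1 medians were 9.34 in vehicle rats and 9.01, 9.25, 9.37, 9.17 and 9.27 at the doses, low to high. All 6 groups overlapped. The other 2 probe sets of Ccnd1 followed the same rats, with r = 0.94 and 0.95 over the deviations of the 35 rats.

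Among the S phase members, Pcna, the sliding clamp that holds polymerases on DNA, spanned 8.40 to 8.57 in vehicle rats, 8.42 to 8.60 at 0.07 mg/kg, 8.35 to 8.68 at 0.69 mg/kg, 8.12 to 8.64 at 6.88 mg/kg and 8.51 to 8.64 at 680 mg/kg. Pcna read 8.54, 8.52, 8.46, 8.69 and 8.31 in the 5 rats at 68 mg/kg. Pcna medians were 8.49 in vehicle rats and 8.53, 8.60, 8.40, 8.52 and 8.57 at the doses, low to high. All 6 rats at 680 mg/kg lay above the vehicle mean of 8.49, while their range overlapped that of vehicle rats. Mcm7, a subunit of the helicase that opens DNA for copying, spanned 7.03 to 7.11 in vehicle rats, 6.98 to 7.31 at 0.07 mg/kg, 7.01 to 7.16 at 0.69 mg/kg, 6.89 to 7.20 at 6.88 mg/kg and 7.03 to 7.32 at 680 mg/kg. Mcm7 read 6.93, 7.16, 6.87, 7.15 and 6.92 in the 5 rats at 68 mg/kg. Mcm7 medians were 7.05 in vehicle rats and 7.09, 7.09, 6.98, 6.93 and 7.12 at the doses, low to high. The vehicle span was narrower than that of any dose group, and all ranges overlapped it. Tk1, thymidine kinase of the nucleotide salvage pathway, spanned 6.55 to 6.94 in vehicle rats, 6.48 to 6.76 at 0.07 mg/kg, 6.65 to 6.95 at 0.69 mg/kg, 6.37 to 6.84 at 6.88 mg/kg and 6.53 to 6.87 at 680 mg/kg. Tk1 read 6.68, 6.86, 6.72, 6.83 and 6.48 in the 5 rats at 68 mg/kg. Tk1 medians were 6.67 in vehicle rats and 6.64, 6.79, 6.65, 6.72 and 6.76 at the doses, low to high. The highest vehicle rat was replicate 2, at 6.94.

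The S phase members with the largest spread were another pair of helicase subunits and a cyclin, and Rrm1 is added for its small unadjusted p at 6.88 and 68 mg/kg. Mcm6 spanned 4.78 to 5.21 in vehicle rats, 4.49 to 5.10 at 0.07 mg/kg, 4.55 to 5.48 at 0.69 mg/kg, 4.51 to 5.20 at 6.88 mg/kg and 4.75 to 5.74 at 680 mg/kg. Mcm6 read 4.85, 5.01, 4.94, 5.24 and 4.79 in the 5 rats at 68 mg/kg. Mcm6 medians were 5.06 in vehicle rats and 4.98, 5.16, 4.79, 4.94 and 5.00 at the doses, low to high. Its highest value belonged to replicate 6 at 680 mg/kg. Mcm4 spanned 5.78 to 6.48 in vehicle rats, 6.04 to 6.38 at 0.07 mg/kg, 6.10 to 6.45 at 0.69 mg/kg, 5.95 to 6.21 at 6.88 mg/kg and 5.94 to 6.37 at 680 mg/kg. Mcm4 read 6.23, 6.44, 6.06, 6.48 and 5.84 in the 5 rats at 68 mg/kg. Mcm4 medians were 6.30 in vehicle rats and 6.16, 6.25, 6.07, 6.23 and 6.21 at the doses, low to high. Both the lowest and the highest of the 35 rats were vehicle rats. Ccne2, cyclin E2, which acts with Cdk2 at the start of S phase, spanned 2.80 to 3.16 in vehicle rats, 2.76 to 3.05 at 0.07 mg/kg, 2.72 to 3.33 at 0.69 mg/kg, 2.42 to 3.00 at 6.88 mg/kg and 2.71 to 3.26 at 680 mg/kg. Ccne2 read 2.85, 2.76, 2.74, 2.95 and 2.66 in the 5 rats at 68 mg/kg. Ccne2 medians were 2.98 in vehicle rats and 3.01, 3.00, 2.89, 2.76 and 3.02 at the doses, low to high. No array had Ccne2 above its own median, so these values are not shown to be above background. Rrm1, the large subunit of ribonucleotide reductase, which makes the building blocks of DNA, spanned 6.16 to 6.67 in vehicle rats, 6.34 to 6.71 at 0.07 mg/kg, 6.15 to 6.71 at 0.69 mg/kg, 5.97 to 6.40 at 6.88 mg/kg and 6.36 to 6.41 at 680 mg/kg. Rrm1 read 6.06, 6.26, 6.40, 6.43 and 6.34 in the 5 rats at 68 mg/kg. Rrm1 medians were 6.58 in vehicle rats and 6.41, 6.40, 6.23, 6.34 and 6.38 at the doses, low to high. At 680 mg/kg all 6 rats lay between 6.36 and 6.41, below the vehicle mean of 6.47 and within the vehicle range.

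Among the mitotic members, Cdkn3 spanned 4.75 to 7.28 in vehicle rats, 5.02 to 7.26 at 0.07 mg/kg, 5.80 to 6.98 at 0.69 mg/kg, 4.93 to 5.88 at 6.88 mg/kg and 4.39 to 6.87 at 680 mg/kg. Cdkn3 read 5.97, 6.06, 6.10, 6.43 and 5.08 in the 5 rats at 68 mg/kg. Cdkn3 medians were 6.14 in vehicle rats and 6.01, 6.11, 5.42, 6.06 and 5.77 at the doses, low to high. The highest value was that of a vehicle rat, and the lowest, 4.39 at 680 mg/kg, was below the array median and so is not shown to be above background. Ccnb2 spanned 5.15 to 6.79 in vehicle rats, 5.20 to 6.83 at 0.07 mg/kg, 5.34 to 6.68 at 0.69 mg/kg, 4.96 to 5.87 at 6.88 mg/kg and 4.99 to 6.40 at 680 mg/kg. Ccnb2 read 5.72, 5.85, 5.96, 6.07 and 4.98 in the 5 rats at 68 mg/kg. Ccnb2 medians were 5.79 in vehicle rats and 5.86, 5.92, 5.36, 5.85 and 5.76 at the doses, low to high. At 6.88 mg/kg its highest rat read 5.87, against a vehicle mean of 5.82. Ccna2, cyclin A2, which acts in S phase and in G2, spanned 3.69 to 5.15 in vehicle rats, 3.25 to 4.86 at 0.07 mg/kg, 3.50 to 4.77 at 0.69 mg/kg, 3.55 to 4.10 at 6.88 mg/kg and 3.32 to 5.06 at 680 mg/kg. Ccna2 read 3.95, 4.19, 4.10, 4.41 and 3.16 in the 5 rats at 68 mg/kg. Ccna2 medians were 4.30 in vehicle rats and 4.11, 4.39, 3.77, 4.10 and 4.06 at the doses, low to high. The SD was 0.19 at 6.88 mg/kg and 0.54 in vehicle rats. Cdc20, an activator of the ubiquitin ligase that starts anaphase, spanned 5.35 to 6.71 in vehicle rats, 5.65 to 6.67 at 0.07 mg/kg, 5.63 to 6.79 at 0.69 mg/kg, 5.50 to 5.92 at 6.88 mg/kg and 5.54 to 6.31 at 680 mg/kg. Cdc20 read 5.96, 5.88, 6.14, 6.17 and 5.56 in the 5 rats at 68 mg/kg. Cdc20 medians were 5.94 in vehicle rats and 5.98, 6.02, 5.74, 5.96 and 5.83 at the doses, low to high. The 6.88 mg/kg rats all lay below 5.94, the vehicle median, and inside the vehicle range.

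The remaining mitotic members with values by group are those with the smallest unadjusted p at some dose. Bub1, a spindle checkpoint kinase, spanned 3.50 to 4.60 in vehicle rats, 3.44 to 4.28 at 0.07 mg/kg, 3.57 to 4.38 at 0.69 mg/kg, 3.39 to 3.68 at 6.88 mg/kg and 3.43 to 4.13 at 680 mg/kg. Bub1 read 3.72, 3.78, 3.79, 3.89 and 3.49 in the 5 rats at 68 mg/kg. Bub1 medians were 3.95 in vehicle rats and 3.87, 3.74, 3.51, 3.78 and 3.77 at the doses, low to high. The 6 rats at 6.88 mg/kg lay within 3.39 to 3.68, all below the vehicle mean of 3.97, and overlapped the lowest vehicle rats. Aurka, Aurora kinase A of the centrosome and spindle, spanned 4.65 to 5.27 in vehicle rats, 4.66 to 5.22 at 0.07 mg/kg, 4.92 to 5.25 at 0.69 mg/kg, 4.53 to 4.76 at 6.88 mg/kg and 4.55 to 5.36 at 680 mg/kg. Aurka read 4.91, 4.77, 4.93, 5.06 and 4.69 in the 5 rats at 68 mg/kg. Aurka medians were 4.92 in vehicle rats and 4.81, 5.07, 4.63, 4.91 and 4.88 at the doses, low to high. All 6 rats at 6.88 mg/kg were below the vehicle mean of 4.96, and the groups overlapped. Ccnb1, cyclin B1, the main partner of Cdk1 in mitosis, spanned 4.18 to 5.12 in vehicle rats, 4.27 to 5.38 at 0.07 mg/kg, 4.62 to 5.44 at 0.69 mg/kg, 3.75 to 4.36 at 6.88 mg/kg and 4.10 to 5.09 at 680 mg/kg. Ccnb1 read 4.54, 4.53, 4.85, 4.63 and 4.15 in the 5 rats at 68 mg/kg. Ccnb1 medians were 4.50 in vehicle rats and 4.79, 4.81, 4.25, 4.54 and 4.58 at the doses, low to high. All 6 rats at 0.69 mg/kg lay above the vehicle mean of 4.52 and all 6 at 6.88 mg/kg below it, with overlap in both comparisons.

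Melk, a kinase of proliferating cells, spanned 2.75 to 3.25 in vehicle rats, 2.90 to 3.31 at 0.07 mg/kg, 2.99 to 3.46 at 0.69 mg/kg, 2.73 to 2.99 at 6.88 mg/kg and 2.80 to 3.05 at 680 mg/kg. Melk read 2.99, 2.88, 3.12, 2.93 and 3.07 in the 5 rats at 68 mg/kg. Melk medians were 2.92 in vehicle rats and 3.03, 3.21, 2.98, 2.99 and 2.91 at the doses, low to high. The 0.69 mg/kg rats all read above the vehicle mean of 2.96, at levels not shown to be above background. Bub1b, BubR1 of the spindle checkpoint, spanned 3.27 to 3.89 in vehicle rats, 3.08 to 3.41 at 0.07 mg/kg, 3.32 to 3.58 at 0.69 mg/kg, 3.12 to 3.40 at 6.88 mg/kg and 3.09 to 3.47 at 680 mg/kg. Bub1b read 3.46, 3.41, 3.26, 3.27 and 3.17 in the 5 rats at 68 mg/kg. Bub1b medians were 3.31 in vehicle rats and 3.32, 3.41, 3.25, 3.27 and 3.28 at the doses, low to high. Vehicle replicate 2, at 3.89, stood apart from the other 5 vehicle rats, which read at most 3.32. Birc5, survivin of the chromosomal passenger complex, spanned 4.62 to 5.32 in vehicle rats, 4.86 to 5.23 at 0.07 mg/kg, 4.87 to 5.41 at 0.69 mg/kg, 4.75 to 5.04 at 6.88 mg/kg and 4.81 to 5.24 at 680 mg/kg. Birc5 read 4.86, 4.98, 5.09, 5.01 and 4.81 in the 5 rats at 68 mg/kg. Birc5 medians were 4.86 in vehicle rats and 5.02, 5.03, 4.83, 4.98 and 4.89 at the doses, low to high. All groups overlapped. Ube2c, the ubiquitin-conjugating enzyme that works with the anaphase ligase, spanned 5.27 to 6.47 in vehicle rats, 5.30 to 6.30 at 0.07 mg/kg, 5.44 to 6.17 at 0.69 mg/kg, 5.27 to 5.61 at 6.88 mg/kg and 5.29 to 5.94 at 680 mg/kg. Ube2c read 5.25, 5.68, 5.54, 5.61 and 4.99 in the 5 rats at 68 mg/kg. Ube2c medians were 5.68 in vehicle rats and 5.54, 5.71, 5.48, 5.54 and 5.55 at the doses, low to high. All 5 rats at 68 mg/kg were below the vehicle mean of 5.72. Plk1, polo-like kinase 1, spanned 5.25 to 5.90 in vehicle rats, 5.43 to 5.80 at 0.07 mg/kg, 5.40 to 5.82 at 0.69 mg/kg, 5.26 to 5.70 at 6.88 mg/kg and 5.34 to 5.59 at 680 mg/kg. Plk1 read 5.58, 5.46, 5.85, 5.58 and 5.35 in the 5 rats at 68 mg/kg. Plk1 medians were 5.58 in vehicle rats and 5.67, 5.58, 5.59, 5.58 and 5.49 at the doses, low to high. All 6 rats at 680 mg/kg lay below the vehicle mean of 5.62 and inside the vehicle range.

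The study's design compares each dose with vehicle, and all 5 comparisons share the same 6 vehicle rats. Members are read on the same arrays and many move together between rats, so a count of members is not a count of independent observations. In a limma fit over all arrays, with Benjamini-Hochberg adjustment over 31042 probe sets, no member passed an adjusted p of 0.05 at any dose. This holds for every probe set, since limma called 0 (0%) at each dose, in the F test over all doses and in the trend over dose rank, and an unmoderated analysis of variance called 0 as well. Because the tissue is bulk liver, a difference in the number of cycling cells and a difference in these transcripts per cell could not be told apart, in either direction.

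At 0.07 mg/kg, 18 of 34 members were lower than in vehicle rats, beside 50.5% of all probe sets, with a median difference of -0.02 on the log2 scale and -0.001 over all probe sets. No member had an unadjusted p under 0.05 in limma, against 3.64% of probe sets. The 3 smallest unadjusted p belonged to Bub1b, Ccnb1 and Melk. Bub1b averaged 3.26 ± 0.14 at 0.07 mg/kg and 3.40 ± 0.24 in vehicle rats (SD, n = 6 each), a difference of -0.14 ± 0.09 (SE), with limma's adjusted p = 1, and 5 of 6 dosed rats lay below the vehicle mean. Ccnb1 averaged 4.80 ± 0.43 at 0.07 mg/kg and 4.52 ± 0.34 in vehicle rats (SD, n = 6 each), a difference of 0.28 ± 0.18 (SE), with limma's adjusted p = 1, and 4 of 6 dosed rats lay above the vehicle mean. Melk averaged 3.06 ± 0.15 at 0.07 mg/kg and 2.96 ± 0.18 in vehicle rats (SD, n = 6 each), a difference of 0.10 ± 0.08 (SE), with limma's adjusted p = 1, and 5 of 6 dosed rats lay above the vehicle mean. The groups overlapped for all of them. Without vehicle replicate 2 the Bub1b difference was -0.04, that of Melk was 0.16 and the median over members was 0.04. That median also turned positive when vehicle replicate 6 was left out (0.01), and likewise for replicate 2 (0.01) or 3 (0.03) of the 0.07 mg/kg rats. The Melk difference was 0.06 with vehicle replicate 3 left out and 0.05 with replicate 1 of the dosed rats left out, and that of Ccnb1 was 0.16 with replicate 6 of the dosed rats left out. The 95% confidence intervals of all 34 members lay within a 2-fold change either way. At this and every other dose, such intervals bound the probe set values. For the 11 members with means below 4.71, where RMA shrinks differences, they do not bound the change of the transcript.

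At 0.69 mg/kg, 6 of 34 members were lower and 28 higher than in vehicle rats, beside 51.3% of all probe sets lower, with a median of 0.07. Only 1 S phase member of 12 and 4 mitotic members of 21 were lower. Melk was the 1 member with an unadjusted p under 0.05, against 3.16% of all probe sets. Melk averaged 3.20 ± 0.19 at 0.69 mg/kg and 2.96 ± 0.18 in vehicle rats (SD, n = 6 each), a difference of 0.24 ± 0.08 (SE), with limma's adjusted p = 1, and 6 of 6 dosed rats lay above the vehicle mean. Ccnb1 averaged 4.87 ± 0.30 at 0.69 mg/kg and 4.52 ± 0.34 in vehicle rats (SD, n = 6 each), a difference of 0.34 ± 0.18 (SE), with limma's adjusted p = 1, and 6 of 6 dosed rats lay above the vehicle mean. Birc5 averaged 5.10 ± 0.22 at 0.69 mg/kg and 4.94 ± 0.26 in vehicle rats (SD, n = 6 each), a difference of 0.17 ± 0.10 (SE), with limma's adjusted p = 1, and 5 of 6 dosed rats lay above the vehicle mean. Each of these groups overlapped with vehicle rats. The Birc5 difference was 0.10 with either vehicle replicate 5 or replicate 4 of the dosed rats left out. The count of lower members rested on single rats. With vehicle replicate 2 left out it was 3, with vehicle replicate 3 left out 10, with vehicle replicate 4 left out 14, and with replicate 4 of the 0.69 mg/kg rats left out 15. All 34 intervals lay within a 2-fold change.

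At 6.88 mg/kg, 31 of 34 members were lower than in vehicle rats, beside 51.3% of all probe sets, with a median of -0.15 over members and -0.002 over all probe sets. All 21 mitotic members and 9 of 12 S phase members were lower, with medians of -0.20 and -0.08. The mitotic members moved together over the 35 rats (median r 0.65), so the 21 are not independent observations. The mitotic mean was 4.59 ± 0.09 at 6.88 mg/kg and 4.83 ± 0.37 in vehicle rats (SD, n = 6 each), and the 6.88 mg/kg rats, between 4.47 and 4.70, overlapped the lower part of the vehicle range of 4.48 to 5.43, with 1 rat just below it. Unadjusted p values under 0.05 were found for 4 members, against 4.63% of all probe sets. Bub1 averaged 3.52 ± 0.10 at 6.88 mg/kg and 3.97 ± 0.40 in vehicle rats (SD, n = 6 each), a difference of -0.46 ± 0.15 (SE), with limma's adjusted p = 0.999, and 6 of 6 dosed rats lay below the vehicle mean. Aurka averaged 4.64 ± 0.09 at 6.88 mg/kg and 4.96 ± 0.25 in vehicle rats (SD, n = 6 each), a difference of -0.32 ± 0.11 (SE), with limma's adjusted p = 0.999, and 6 of 6 dosed rats lay below the vehicle mean. Rrm1 averaged 6.23 ± 0.16 at 6.88 mg/kg and 6.47 ± 0.22 in vehicle rats (SD, n = 6 each), a difference of -0.24 ± 0.09 (SE), with limma's adjusted p = 0.999, and 6 of 6 dosed rats lay below the vehicle mean. Every dosed rat lay below the vehicle mean for these genes, yet the groups overlapped. Ccnb1 averaged 4.16 ± 0.24 at 6.88 mg/kg and 4.52 ± 0.34 in vehicle rats (SD, n = 6 each), a difference of -0.36 ± 0.18 (SE), with limma's adjusted p = 0.999, and 6 of 6 dosed rats lay below the vehicle mean. None of the 4 passed the adjustment.

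The size of the difference at 6.88 mg/kg depended on vehicle replicate 2. Without that rat the median over members was -0.07 with 28 members lower, and the mean of the S phase differences minus the mean of the mitotic differences was 0.05 in place of 0.15. Averaging all probe sets of a member gave a median of -0.08. Intervals lay within a 2-fold change for 31 of 34 members, and the exceptions were Cdkn3, Ccna2 and Ccnb2. The difference of Cdkn3 was -0.62 (interval -1.38 to 0.14) and that of Ccnb2 -0.44 (upper bound 0.12), while the dim probe set of Ccna2 read 3.78 at 6.88 mg/kg and 4.30 in vehicle rats. In the same comparison 6 of 6 endothelial markers and 6 of 7 Kupffer cell and macrophage markers were lower, each list with a median of -0.09, and 1 of 8 hepatocyte markers was lower. Of the other lists, 7 of 9 lymphocyte, 5 of 6 red cell precursor, 3 of 5 cholangiocyte and 3 of 7 stellate cell and fibroblast markers were lower. Lower endothelial, Kupffer cell and macrophage markers were not particular to 6.88 mg/kg. Kupffer cell and macrophage markers were 7 of 7 lower at 0.07, 0.69, 68 and 680 mg/kg. Endothelial markers were 6 of 6 lower at 0.07, 0.69 and 68 mg/kg, and 3 of 6 lower at 680 mg/kg. The mean of the endothelial list ran between 7.88 and 8.18 at 6.88 mg/kg and between 8.05 and 8.13 in vehicle rats, and that of the Kupffer cell and macrophage list between 7.69 and 8.57 at 6.88 mg/kg and between 7.80 and 8.39 in vehicle rats. The difference between 3 prime and 5 prime Actb probe sets, a measure of RNA degradation, ran between 1.13 and 1.37 with a median of 1.20 at 6.88 mg/kg, and between 1.04 and 1.23 with a median of 1.10 in vehicle rats. The part of these markers and of RNA quality in the result was not tested.

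At 68 mg/kg, 24 of 34 members were lower than in vehicle rats, beside 51.1% of all probe sets, with a median of -0.07. The lower members were 8 of 12 for S phase and 15 of 21 for mitosis. No member had an unadjusted p under 0.05, against 3.88% of all probe sets. Ube2c averaged 5.41 ± 0.29 at 68 mg/kg and 5.72 ± 0.41 in vehicle rats (SD, n = 5 and 6), a difference of -0.31 ± 0.17 (SE), with limma's adjusted p = 0.999, and 5 of 5 dosed rats lay below the vehicle mean. Rrm1 averaged 6.30 ± 0.15 at 68 mg/kg and 6.47 ± 0.22 in vehicle rats (SD, n = 5 and 6), a difference of -0.17 ± 0.09 (SE), with limma's adjusted p = 0.999, and 5 of 5 dosed rats lay below the vehicle mean. Ccne2 averaged 2.79 ± 0.11 at 68 mg/kg and 2.97 ± 0.14 in vehicle rats (SD, n = 5 and 6), a difference of -0.18 ± 0.10 (SE), with limma's adjusted p = 0.999, and 5 of 5 dosed rats lay below the vehicle mean. The groups overlapped for each. With vehicle replicate 2 left out the Ube2c difference was -0.16, and with replicate 5 of the dosed rats left out it was -0.20. The Rrm1 difference was -0.11 with replicate 1 of the dosed rats left out. The number of lower members was 14 when vehicle replicate 2 was left out, with a median of 0.02, and 15 when replicate 5 of the 68 mg/kg rats was left out, with a median of 0.01. All 34 intervals lay within a 2-fold change.

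At 680 mg/kg, the highest dose, 21 of 34 members were lower than in vehicle rats, beside 51.7% of all probe sets, with a median of -0.01. S phase members were evenly split, 6 lower and 6 higher, and 14 of 21 mitotic members were lower. No member had an unadjusted p under 0.05, against 4.95% of all probe sets. Bub1b averaged 3.27 ± 0.15 at 680 mg/kg and 3.40 ± 0.24 in vehicle rats (SD, n = 6 each), a difference of -0.13 ± 0.09 (SE), with limma's adjusted p = 0.994, and 5 of 6 dosed rats lay below the vehicle mean. Plk1 averaged 5.49 ± 0.10 at 680 mg/kg and 5.62 ± 0.24 in vehicle rats (SD, n = 6 each), a difference of -0.13 ± 0.09 (SE), with limma's adjusted p = 0.994, and 6 of 6 dosed rats lay below the vehicle mean. Pcna averaged 8.58 ± 0.05 at 680 mg/kg and 8.49 ± 0.06 in vehicle rats (SD, n = 6 each), a difference of 0.09 ± 0.07 (SE), with limma's adjusted p = 0.994, and 6 of 6 dosed rats lay above the vehicle mean. None of these ranges was apart from that of vehicle rats. Without vehicle replicate 2 the number lower was 8, the median was 0.04, and the differences of Bub1b and Plk1 were -0.03 and -0.08. With vehicle replicate 5 left out the Plk1 difference was -0.21. Intervals lay within a 2-fold change for 33 members and within a 1.5-fold change for 30. The exception to the first limit was Cdkn3 at 0.765-fold (interval 0.451 to 1.30).

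**Figure D2:**
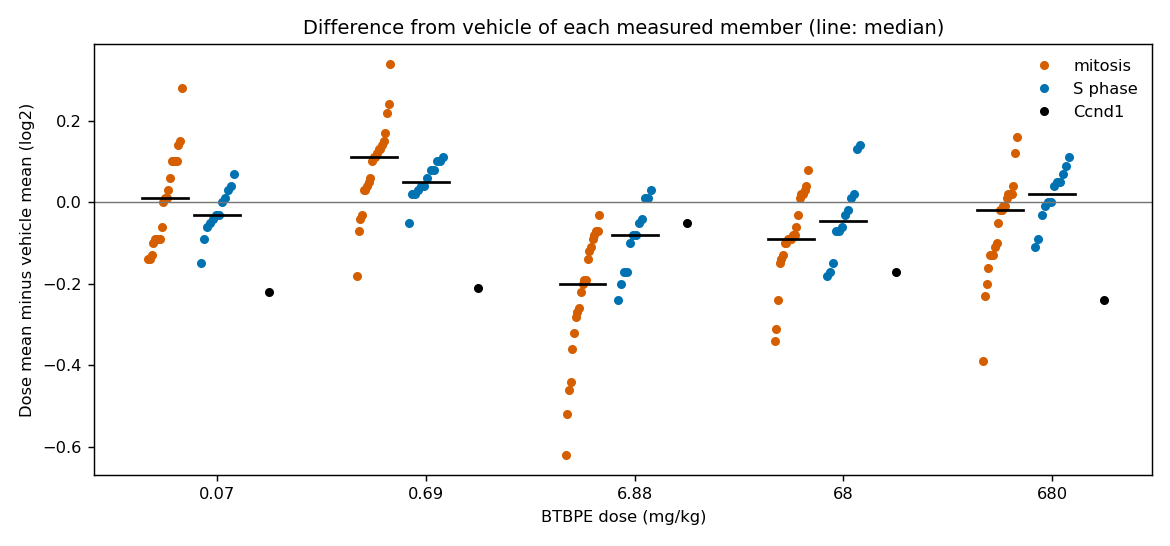
Difference of the dose mean from the vehicle mean (log2, vertical axis) for each measured member at each BTBPE dose in mg/kg (horizontal axis), with mitotic members, S phase members and Ccnd1 in columns side by side and the median as a line. At 6.88 mg/kg all 21 mitotic points lie below 0 with a median of -0.20, while at 0.69 mg/kg 17 of the 21 lie above it. No point passed the adjusted threshold.

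No member passed a test over all doses together. The moderated F test over all doses gave an unadjusted p under 0.05 for 3 members, Ccnb1 (0.00539), Aurka (0.0162) and Melk (0.0187), against 3.85% of all probe sets, and each had an adjusted p of 1.00. Slopes over dose rank were negative for 28 of 34 members, beside 52.3% of all probe sets, and for 20 of 21 mitotic members. Their median was -0.02 log2 units per dose step. The groups did not decline in dose order. The mitotic mean was 4.83 in vehicle rats and 4.84, 4.92, 4.59, 4.75 and 4.77 at the doses, low to high. Slope counts were not repeated with single rats left out, so their dependence on vehicle replicate 2 is not known. Only Rrm1 had an unadjusted p under 0.05 for the trend (-0.03 per step, adjusted p = 0.972 in limma), against 5.14% of all probe sets. Since the comparisons share the vehicle rats and many members move together between rats, these counts are not separate pieces of evidence.

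**Figure D3:**
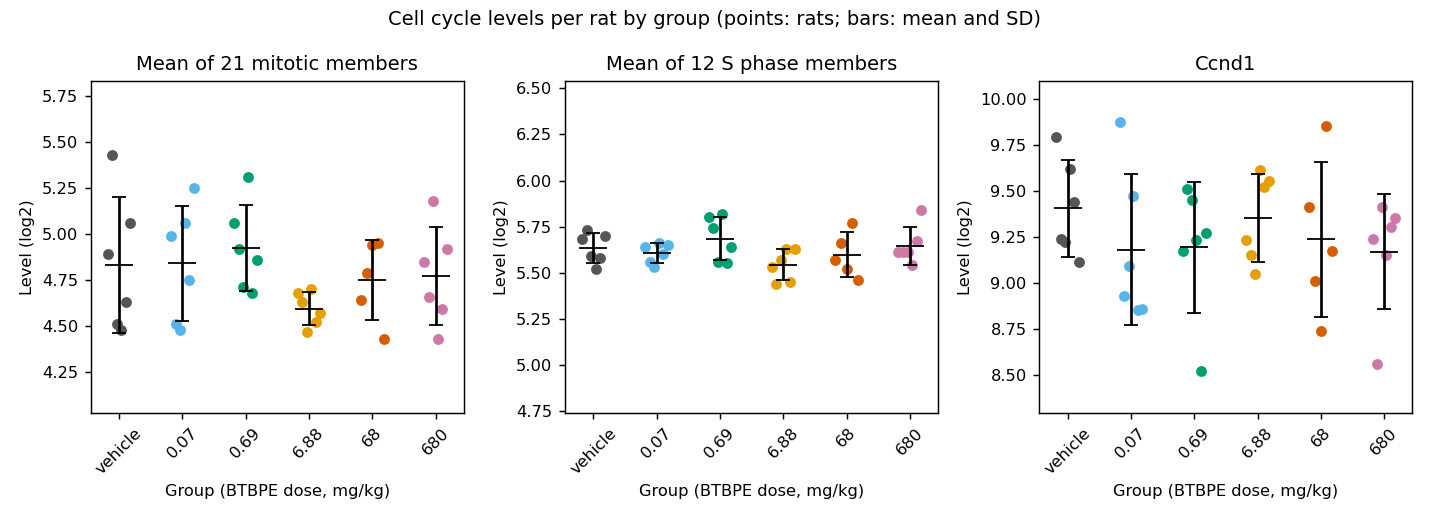
Mean level (log2, vertical axes) of the 21 mitotic members, the mean of the 12 S phase members and the level of Ccnd1 in each rat, by group (horizontal axes, BTBPE dose in mg/kg), with bars for the group mean and SD. The mitotic means at 6.88 mg/kg are the most tightly grouped, SD 0.09, while vehicle rats run between 4.48 and 5.43.

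The mitotic members moved together from rat to rat within groups. In vehicle rats replicate 2 had all 21 mitotic members above their group means and replicate 4 had 0 of 21. At 0.07 mg/kg replicate 6 had 21 of 21 above and replicate 3 had 0 of 21. At 0.69 mg/kg replicate 4 had 20 of 21 above, and at 680 mg/kg replicate 3 had 20 of 21 above and replicate 4 had 1. The deviation of the mitotic mean was 0.60 in vehicle replicate 2, 0.41 in replicate 6 at 0.07 mg/kg, 0.38 in replicate 4 at 0.69 mg/kg and 0.41 in replicate 3 at 680 mg/kg. High rats were found both with and without BTBPE.

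Pairs of members were compared by the Pearson correlation of their deviations from the group means over the 35 rats, as a description, since all values of a rat come from 1 array. Among the 210 pairs of mitotic members the median r was 0.65, between 0.07 and 0.95, and all 210 were positive. Among the 66 pairs of S phase members the median was 0.29, with 61 positive, and between the phases it was 0.27. Over all pairs of the 14217 genes the median was 0.00, and 0.146% of pairs reached 0.65. Ccnd1 had a median r of 0.10 with mitotic members and 0.18 with S phase members. The first principal component held 77.5% of the variance of the mitotic members and 42.2% of that of the S phase members. Deviations were not scaled for this, so members with a large SD weigh most. Among mitotic members these were Cdkn3 (SD 0.70), Ccnb2 (0.52) and Ccna2 (0.51), while Melk (0.14) weighed little. The 2 percentages therefore mix spread with co-variation and do not measure how evenly the members share 1 axis.

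The pair with the highest r was Ccnb2 and Cdkn3, at 0.95 (Spearman's rho 0.95). Kif20a, a kinesin of the dividing cell's midzone, correlated with the mean of the other mitotic members at r = 0.94 (rho 0.95), Cdk1 at 0.93 (rho 0.94) and Ccna2 at 0.92 (rho 0.93). At the other end stood Melk, at 0.26 (rho 0.18), and Kif11, a spindle motor, at 0.45 (rho 0.45). Of the S phase members, Tk1 had the highest r with the mitotic mean, 0.74 (rho 0.76), while Pcna had 0.24 (rho 0.26) and Mcm2 0.15 (rho 0.28). The 6 helicase subunits Mcm2 to Mcm7 correlated with one another at a median of 0.31 over 15 pairs.

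Dim probe sets took part in the pattern. The 9 mitotic members below 4.71 correlated at a median of 0.48 with each other and of 0.64 with the 12 brighter ones, which had 0.70 among themselves. Second probe sets gave partly the same picture. The other probe set of Ccnb1 followed the main one at r = 0.80 and the mean of the other mitotic members at 0.92, and that of Nusap1 followed its main one at 0.80. For Tk1 the other 2 probe sets gave 0.70 and, at a mean of 3.60, -0.19. For Cdc20 the 4 other probe sets gave 0.61, 0.42, 0.06 and -0.02, the last at a mean of 2.32. The other probe sets of Racgap1, Top2a, Kif11 and Ccne2, all with means below 4.71, gave 0.54, 0.37, 0.15 and -0.19.

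**Figure D4:**
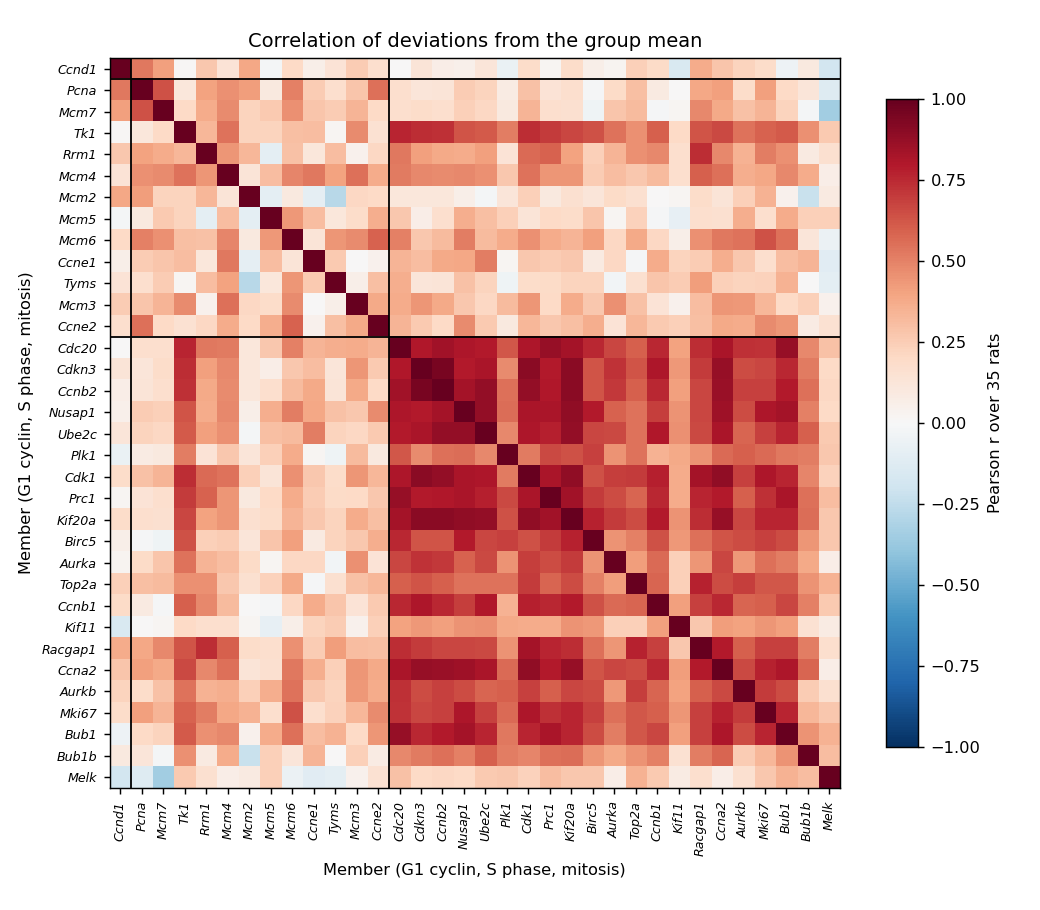
Pearson r of the deviations from the group means over 35 rats for each pair of the 34 measured members, on a colour scale over the whole range of r, with black lines between Ccnd1, the S phase members and the mitotic members. The mitotic block is red throughout, median 0.65, while the S phase block has a median of 0.29 and the Tk1 row is red across the mitotic columns.

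The relation of single members to Cdk1, a gene taken after the correlations had been seen, is given as a description without a test. Over the 20 other mitotic members r with Cdk1 had a median of 0.80, between 0.23 and 0.90, and over the 12 S phase members a median of 0.34, between 0.13 and 0.74. The ranges of the phases overlapped. Cdkn3 followed Cdk1 at r = 0.90 (rho 0.91), and Mki67, the Ki-67 antigen used to mark cycling cells, at 0.81 (rho 0.78). The lowest mitotic members were Birc5 (0.64), Plk1 (0.52), Bub1b (0.49), Kif11 (0.37) and Melk (0.23). Of the S phase members Tk1 (0.74), Rrm1 (0.57) and Mcm4 (0.54) lay above Plk1, and Mcm6 (0.46), Mcm3 (0.44) and Pcna (0.29) below it. Ccnd1 had r = 0.18 (rho 0.17). Without the 2 rats farthest from the median of Cdk1 the medians were 0.76 over mitotic and 0.33 over S phase members. The difference between the phases was not tested.

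**Figure D5:**
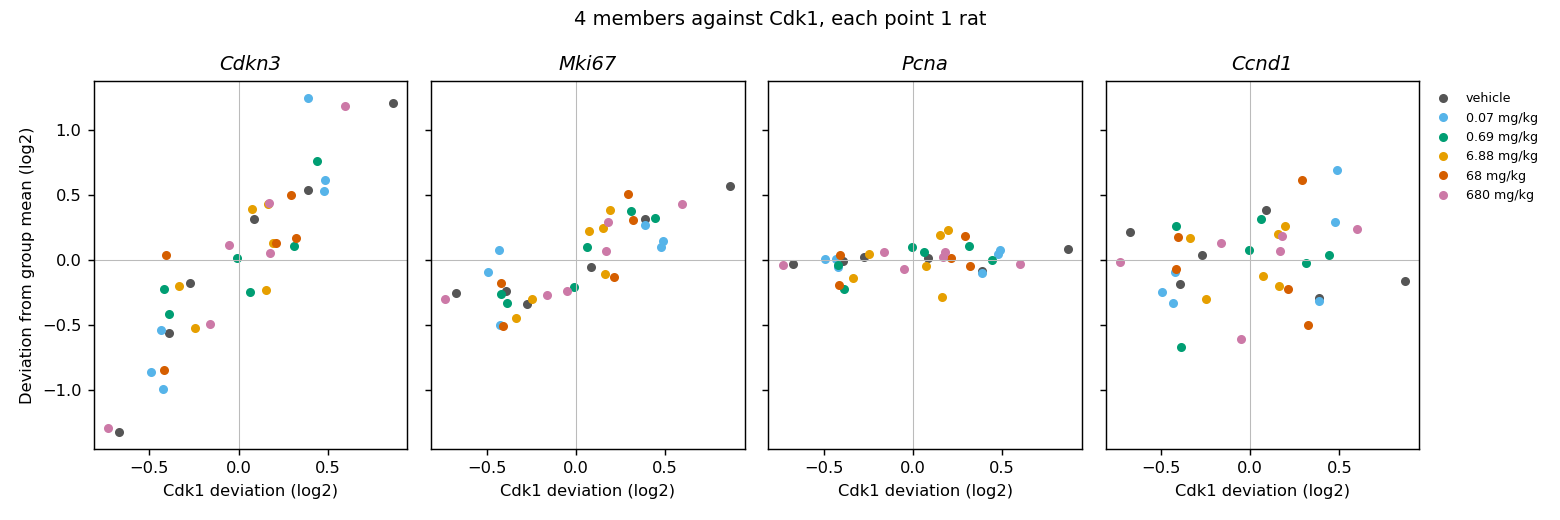
Deviation from the group mean of Cdkn3, Mki67, Pcna and Ccnd1 (log2, vertical axes) against that of Cdk1 (log2, horizontal axes), 1 point per rat in the colour of its group. Cdkn3 (r = 0.90) and Mki67 (r = 0.81) climb with Cdk1 across all groups, while Pcna (r = 0.29) stays near 0 and Ccnd1 (r = 0.18) scatters.

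Within single groups of 6 rats the median r between mitotic members was 0.86 in vehicle rats and 0.72, 0.65, 0.22 and 0.71 at 0.07, 0.69, 6.88 and 680 mg/kg. The group at 6.88 mg/kg, with the lowest value, also had the smallest SD of the mitotic mean, 0.09, against 0.37 in vehicle rats. Cdkn3 followed Cdk1 at 0.65 there and at 0.97 in vehicle rats. Whether the groups differ in this respect was not tested. With vehicle replicate 2 and the 680 mg/kg rat of replicate 3 both left out, a choice made after their values had been seen, the median over all mitotic pairs was 0.59 in place of 0.65.

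The wider pathway was read from 3 lists. They were chosen with earlier results of these data known, so the counts and correlations below are a description and not a test. Of 24 measured other mitotic genes, 17 correlated with the mitotic mean at r over 0.5, against 0.501% of the 14183 genes that are not members. Only 2 of 20 other DNA replication genes and 0 of 26 cell cycle regulators did so. The mean of the other mitotic genes followed the mitotic mean at r = 0.97 (rho 0.96), that of the other replication genes at 0.56 (rho 0.58) and the S phase mean at 0.64 (rho 0.68). In limma's F test over doses 0 of 24, 0 of 20 and 1 of 26 of these genes had an unadjusted p under 0.05, and none passed the adjustment. The smallest p were those of Cenpe, a kinetochore motor (0.0972), and Kif2c, a microtubule depolymerase (0.122), among mitotic genes. Slbp, which binds histone messages (0.0627), and Rfc5, of the clamp loader (0.0856), led the replication genes. Cdc25a, a phosphatase that activates cyclin-dependent kinases (0.0278), and Lin9, of the complex that binds the CHR (0.0584), led the regulators.

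Markers of other cell types and of RNA quality were set beside the mitotic mean over the 35 rats. The 8 hepatocyte markers all had means above 4.71, with Alb, albumin, the main secreted protein of hepatocytes, at 14.39, and the mean of the list had r = 0.01 with the mitotic mean (rho 0.01). The r was 0.04 (rho 0.09) for 9 lymphocyte markers, of which 3 had means above 4.71, and 0.02 (rho -0.03) for 6 red cell precursor markers. For 7 Kupffer cell and macrophage markers it was 0.25 (rho 0.22), for 7 stellate cell and fibroblast markers 0.25 (rho 0.18), and for 6 endothelial markers -0.07 (rho -0.12). The 5 cholangiocyte markers gave 0.38 (rho 0.29), or 0.25 without the 2 rats farthest from the median of the mitotic mean. Their mean level ran between 4.82 and 5.21 at 6.88 mg/kg and between 4.82 and 5.25 in vehicle rats. The Actb difference had r = 0.12 (rho 0.13). The part of other cell types in the shared pattern was not tested.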

How the data were processed

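Liver RNA of 35 rats was measured on 1 array each, in 6 groups taken from the labels. The authors deposited 1 log2 RMA value per probe set, made with RMA and the affy package per the submitters' processing notes; the sources used here give no versions, and the log base follows RMA's convention. Quantile normalisation in RMA brings the arrays to almost 1 distribution, while its background model shrinks differences at low signal.

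The deposited table listed 31099 probe sets, of which 57 control probe sets were dropped and 31042 tested without a filter. By the platform annotation 20826 had 1 gene symbol, 436 several and 9780 none, and 20758 of those with 1 symbol had an identifier still current in RefSeq (GRCr8). No 2 arrays held identical values, and the lowest correlation between arrays was 0.991.

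Each dose was contrasted with vehicle in limma 3.58.1 (R 4.3.3), with 1 coefficient per group, all 35 arrays in 1 fit and Benjamini-Hochberg adjustment at 0.05 over all probe sets. The series design names R/maanova, in whose place limma's moderated test in the same one-way model was used. The fit was tested on simulated data. Correlations used deviations from group means and carry no test (numpy 2.4.6, scipy 1.17.1, Python 3.11.15).

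The members, the pathway lists and the marker lists were chosen with earlier results of these data known. The phase groups, the tests and the rule for named genes were then written down for this work. That rule takes Ccnd1, the 3 S phase and the 3 mitotic members with the highest mean, the 3 of each with the largest SD, and the 3 with the smallest unadjusted p at each dose, and from each pathway list the 2 smallest p in the F test. The choice of Cdk1 for a closer description, the ranking of other genes by the mitotic mean, and the removal of 2 rats together were chosen after the values had been seen. So were the promoter letters and window, which replaced a first search with longer E2F letters over 300 bases. With the present letters over those 300 bases, the CHR letters occurred in 11 of 17 mitotic members (21.0% of all genes) and E2F letters in 6 of 10 S phase members (6.27% of all genes).

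Settings changed in turn were median centring, a repeat of quantile normalisation, a dim probe set filter, array weights, the block for replicate number, a robust prior with an intensity trend, analysis of variance without moderation, fits of vehicle and 1 dose alone, the mean of all probe sets of a member, only brighter members, and the leaving out of each rat.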

Additional observations from a re-analysis of the deposited data

Results flagged for a closer look

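The groups of each member and of the mitotic and S phase means were examined for a single rat far from the others by Dixon's test at the 95% level, which chance passes in about 1 group in 20, and 9 of 216 groups held such a rat. Ccnd1 was lowest at 8.52 in replicate 5 at 0.69 mg/kg, with the next rat at 9.17, and at 8.56 in replicate 2 at 680 mg/kg, with the next at 9.15. Mcm5, a helicase subunit, was highest at 5.41 in replicate 6 at 680 mg/kg, with the next at 5.07. Top2a, a topoisomerase that untangles chromosomes, was highest at 5.06 in replicate 3 at 68 mg/kg, with the next at 4.69. Ccnb1 was highest at 5.44 in replicate 4 at 0.69 mg/kg, with the next at 4.88. Bub1b was highest at 3.89 in vehicle replicate 2, with the next at 3.32. In replicate 6 at 6.88 mg/kg Plk1 was lowest at 5.26, with the next at 5.58, and Melk was lowest at 2.73, with the next at 2.92. Kif20a was lowest at 4.75 in replicate 5 at 0.69 mg/kg, with the next at 5.26.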

How the results depend on the processing

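No alternative called a probe set at any dose by limma or by the unmoderated analysis of variance, which at 680 mg/kg left 1526 probe sets at an unadjusted p under 0.05. No strong pairing by replicate number was seen. Over 85 pairs of arrays with the same number the correlation of deviations ran between -0.29 and 0.24 with 8 over 0.1. Only 5 of 35 arrays matched best with their own number. The labels do not say what a number stands for, so weaker pairing could be missed. With the replicate block 0 probe sets were called. Each number occurs once in every group of 6 rats, so the block cannot change the member differences at those doses. Only at 68 mg/kg, with 5 rats, could it move them, and there the signs were kept and the number of lower members stayed at 24. Without vehicle replicate 2 and replicate 3 at 680 mg/kg together, an alternative chosen after the data had been seen, the number of lower members was 3 at 0.69 mg/kg and 14 at 68 mg/kg. The cause was not tested, and vehicle replicate 2 had all 21 mitotic members above their group means. When each rat was left out in turn, the number of lower members ran between 12 and 23 at 0.07 mg/kg, 3 and 15 at 0.69, 28 and 33 at 6.88, 14 and 29 at 68, and 8 and 26 at 680 mg/kg. The median over members then ran between -0.07 and 0.04, 0.01 and 0.14, -0.19 and -0.07, -0.12 and 0.02, and -0.06 and 0.04 at the doses, low to high. The mean S phase difference minus the mean mitotic difference ran between -0.13 and 0.04, -0.13 and 0.02, 0.05 and 0.21, -0.05 and 0.11, and -0.02 and 0.17, so its sign was kept only at 6.88 mg/kg. The median r ran between 0.60 and 0.66 among mitotic members, 0.26 and 0.30 among S phase members, and 0.25 and 0.31 between the phases, and leave-one-out fits called 0 probe sets. The 6 members Ccne2, Aurkb, Mki67, Bub1, Bub1b and Melk never read above an array's own median, so their levels are not shown to be above background. Of these, Bub1, Mki67 and Aurkb followed the mean of the other mitotic members at r = 0.85, 0.81 and 0.73. Bub1b, Ccne2 and Melk had lower values, 0.56, 0.36 and 0.26. The filter, the prior and the unmoderated analysis leave member differences as they are, so they bear on calls alone.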

Other observations

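Genes outside the list were ranked by their correlation with the mitotic mean, after the data had been seen and without a test, and those at the top included known genes of the kinetochore, spindle and cleavage furrow. Over deviations of the 35 rats from their group means, 71 of 14183 genes that are not members (0.501%) had r over 0.5 and 22 (0.155%) over 0.7. Ect2, an exchange factor that starts the cleavage furrow, had r = 0.93. Spc24 and Spc25, subunits of the kinetochore complex that holds microtubules, had 0.90 and 0.86. Cdca3 had 0.89, Aspm, a protein of spindle poles, 0.88, and Pttg1, securin, which restrains the separation of chromosomes, 0.86. Stmn1, stathmin, a microtubule destabiliser, had 0.85 at a mean level of 7.93, and H2az1, a histone variant, 0.72 at a mean level of 10.72. Of the 50 genes with the highest r, 14 were on the list of other mitotic genes, 0 on those of replication genes or regulators, and 36 on none. The 14 are among the 17 other mitotic genes already counted at r over 0.5, and so add no further evidence.

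The genes outside the list with the lowest r with the mitotic mean were ranked in the same way, without a test. How many genes lie this low was not counted, so these values are not read as a result. The lowest was Rnd2, with r = -0.64 at a mean level of 7.73. Lhx1, whose mean level of 4.35 was below the array medians, had r = -0.62. Further down the ranking, Rxra, the partner receptor of many nuclear receptors in liver, had -0.52, and Alad, an enzyme of haem synthesis, had -0.51.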
